A study of Danio rerio with 2 samples.

Results

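The genes described here are the cytochrome P450 enzymes and the enzymes of conjugation and aldehyde oxidation in sorted cells of zebrafish larvae. They were taken as all genes whose symbol begins with CYP and a digit, UGT, SULT, ALDH, ADH and a digit, or GST followed by a letter of the alpha, kappa, mu, omega, pi, rho, theta or zeta class. The rule found 107 of the 17668 genes of the zebrafish data set. Of these, 106 were named by their Ensembl identifier and 1 only by its deposited symbol.

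The data set holds 1 library of GFP(+) cells and 1 library of GFP(−) cells, sorted by flow cytometry from Ppv3b-GFP (ppv3b:GFP) transgenic larvae at 5 dpf. Both populations carry the transgene, which expresses GFP predominantly in hair cells (HCs), and the GFP(−) library holds sorted cells without GFP signal. RNA-seq reads had been counted per gene and quantile normalized with a floor of 20 by the authors, so that values are normalized reads, the sum of values is 19035170.5 in each library, and the depth of each library is unknown. Because each population has 1 library, differences have no replicate check, no test was possible, and the ratio of GFP(+) to GFP(−) values is given as a description of these libraries. Where values are given as one against the other, the GFP(+) value comes first. Levels were compared between libraries and not between genes, because the values are not corrected for gene length. Genome coordinates and sequences are not given, and the places of genes relative to each other are those of GRCz12tu as annotated by RefSeq.

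Cytochrome P450s are heme enzymes that add an oxygen atom to lipids, steroids and foreign compounds, and they draw electrons from P450 reductase or, in mitochondria, from ferredoxin. Sulfotransferases (SULT), UDP-glucuronosyltransferases (UGT) and glutathione S-transferases (GST) then attach a polar group, which makes a compound easier to excrete. In vertebrates the liver and the gut hold much of this capacity, whereas other P450s have fixed tasks in the synthesis of cholesterol, bile acids and steroid hormones and in the breakdown of retinoic acid.

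A limit of the values bears on low genes. In the GFP(+) library, 3329 genes (18.8% of the data set) had a value of 48 or less, among them 27 of the 107 members. None of these 27 has a deposited symbol. Here, genes without a deposited symbol lay at the floor or on 1 curve, which ended at 48.5 and followed their GFP(−) value, so that such a GFP(+) value is not a measurement of its own. The fold of these members was computed against 48.5 and is a lower bound, and so is that of a member whose GFP(−) value is the floor. For 9 members both values were 48 or less, and no direction is given for them. They were a CYP27A1 gene, cyp46a1.1, cyp46a1.2, CYP1B1, cyp2ae1, gsta.2, sult3st3, ugt5e1 and ugt2b1.

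Members were more often lower than higher in GFP(+) cells. Of the 107, 36 were higher, against 47.5% of all genes, and by the deposited values 71 were lower (66.4%), against 52.4% of all genes. The 71 hold the 9 members without a direction, which leaves 62. By the deposited values, 35 members were at least 3-fold lower (32.7%), against 16.4% of all genes, and 33 (30.8%) with GFP(+) values of up to 48 set to 48, against 14.6% of all genes. Another 16 members were at least 3-fold higher (15.0%), against 16.9% of all genes. The median log2 ratio of the members was −0.61 and that of all 17668 genes −0.10. With GFP(+) values of up to 48 set to 48 these medians were −0.45 and 0.12. The members' sum was 0.407% of all normalized reads in GFP(−) and 0.241% in GFP(+) cells.

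**Figure D1:**
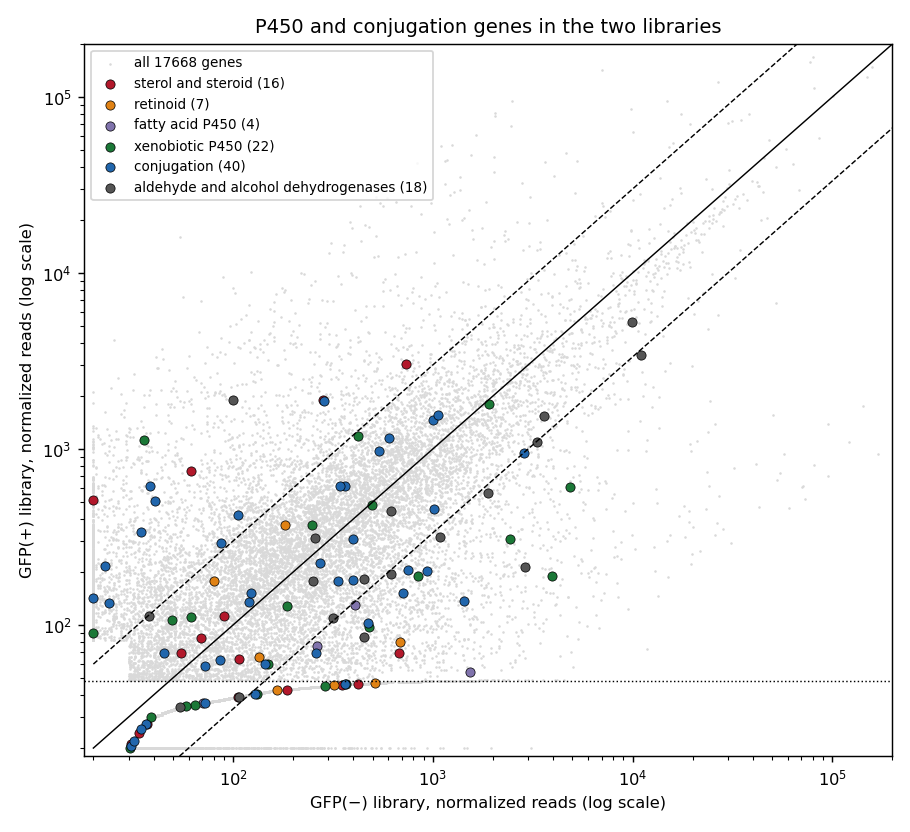
Normalized reads of each gene in the GFP(−) library (x axis) and the GFP(+) library (y axis), both on log scales. Grey points are all 17668 genes and coloured points the 107 members by class, the solid line marks equal values, the dashed lines 3-fold differences and the dotted line the GFP(+) value of 48. More members lie below the lower dashed line (35) than above the upper one (16), and the lowest members lie on the curve of tied values under the dotted line.

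Markers of several cell types differed between the libraries, and their values stand beside all that follows. By the deposited values, which the counts of all lists use, the libraries differed as follows. Of 11 HC marker genes all 11 were higher in GFP(+) cells, 10 of them at least 3-fold, with 0.141% of the GFP(+) total against 0.01% of the GFP(−) total. All 15 hepatocyte marker genes were lower in GFP(+) cells, with 0.181% against 1.98% of the total. Of 12 enterocyte genes 11 were lower, with 0.0065% against 0.145%, and all 4 genes of the exocrine pancreas were lower, with 0.0132% against 1.8%. All 8 genes of the superficial epidermis were higher, with 8.33% against 0.581%. Of 11 ionocyte genes 7 were higher, with 0.637% against 0.0939%, among them a pair named RHCG that were 38.1-fold (ENSDARG00000003203) and 50.3-fold (ENSDARG00000007080) higher. This pair made up most of the ionocyte sum in GFP(+) cells, with 95112.5 and 19422.5 of 121304.5 normalized reads. The other 4 ionocyte genes were lower by the deposited values, among them SLC4A1 (ENSDARG00000012881), by 36.9-fold, and ca2, by 2.30-fold. They include SLC4A1 (ENSDARG00000024560), which had 31.5 against 44.5 normalized reads and gives no direction. The list named slc4a1b, which matched both genes named SLC4A1 without its suffix. Which of them is the listed copy is uncertain. The same holds for the RHCG pair, which matched the 1 symbol rhcgb. Other lists also hold more genes than matched symbols. The 12 enterocyte genes came from 9 symbols, with several genes matched to anpepb. All 7 neuronal genes, all 4 glial genes and 5 of 6 leukocyte genes were lower. The same held for 6 of 7 genes of pigment epithelium and photoreceptors. The 7 genes of the pronephros were split, with 3 higher and 4 lower and with 0.154% against 0.124% of the total. Over all genes, 47.5% were higher and 52.4% lower. The lower genes of pigment epithelium include rlbp1b and RPE65 (ENSDARG00000094752), whose values were both under 48 and give no direction. In such bulk libraries, fewer cells of a type and less RNA per cell cannot be told apart, and the part of these other cells in the values of the enzymes was not tested.

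The members were divided by their symbols into 6 classes. By the deposited values, none of the 4 fatty acid P450s was higher in GFP(+) cells, and 4 of the 7 retinoid enzymes were at least 3-fold lower and none 3-fold higher. These 4 retinoid enzymes include ALDH8A1, which was later placed in tryptophan breakdown. The sterol and steroid P450s were split, with 4 of 16 (25%) at least 3-fold higher and 4 at least 3-fold lower. The conjugation enzymes were split as well, with 9 of 40 (22.5%) at least 3-fold higher and 9 at least 3-fold lower. Of all genes, 47.5% were higher, and the shares at 3-fold were 16.9% higher and 16.4% lower.

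**Figure D2:**
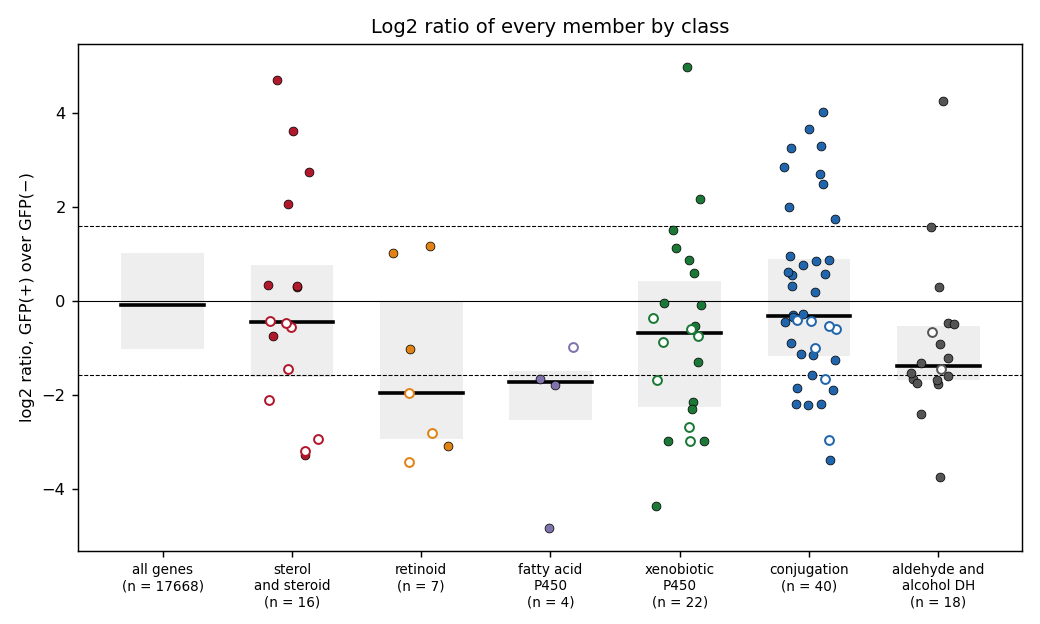
Log2 ratio of GFP(+) to GFP(−) values of every member, by class, with the number of genes under each name (DH, dehydrogenases). Black lines are medians and grey boxes reach from the first to the third quartile, open points have a GFP(+) value of 48 or less, and dashed lines mark 3-fold differences. The sterol and steroid class and the conjugation class spread to both sides of 0, whereas 15 of the 18 aldehyde and alcohol dehydrogenases lie below it.

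Among the sterol enzymes, CYP51A1 was higher in GFP(+) cells and CYP7A1 and CYP8B1 were lower. CYP51A1 (ENSDARG00000042641), the lanosterol demethylase of cholesterol synthesis, had 3041.5 normalized reads in GFP(+) and 735.0 in GFP(−) cells, a 4.14-fold difference. CYP7A1 (ENSDARG00000069018), the rate-limiting enzyme of bile acid synthesis, was 9.70-fold lower, with 69.5 normalized reads in GFP(+) cells against 674.0. CYP8B1 (ENSDARG00000053068), which acts on the sterol ring on the way to cholic acid, had 45.5 against 353.0 and was at least 7.28-fold lower. The direction of CYP7A1 and CYP8B1 was that of the hepatocyte markers. CYP7B1 (ENSDARG00000008858), an oxysterol hydroxylase, differed little, with 112.0 normalized reads in GFP(+) and 90.0 in GFP(−) cells.

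Genes of the same sterol family differed from each other. The CYP27A enzymes are mitochondrial hydroxylases of the sterol side chain. Of 5 such genes, cyp27a1.1 (ENSDARG00000033802) was 6.70-fold higher in GFP(+) cells, with 1889.5 against 282.0 normalized reads, whereas cyp27a3 (ENSDARG00000057262), with 43.0 against 187.0, was at least 3.86-fold lower. A further member, cyp27a2 (ENSDARG00000073764), had 39.0 against 106.5 and was at least 2.20-fold lower. The pair of genes that share the name CYP27A1 showed no large difference, with 84.5 against 69.0 normalized reads for ENSDARG00000055159 and 21.0 against 31.0 for ENSDARG00000088013, the latter without a direction. CYP46A1 is known in mammals as the cholesterol hydroxylase of neurons. Of the 3 copies measured here, cyp46a1.3 (ENSDARG00000089177) had 752.5 against 61.5. normalized reads, a 12.2-fold higher value in GFP(+) cells All 7 neuronal markers were lower in the same library. The other copies, cyp46a1.1 with 24.5 against 34.0 and cyp46a1.2 with 27.5 against 37.0, had no direction.

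Steroid hormone and vitamin D enzymes also differed in direction. CYP17A1 (ENSDARG00000033566), the hydroxylase and lyase on the path to androgens and cortisol, had 516.5 normalized reads in the GFP(+) library and the floor value in the GFP(−) library, at least 25.8-fold higher. The enzyme that completes cortisol synthesis in fish, cyp11c1 (ENSDARG00000042014), had 69.0 in GFP(+) and 55.0 in GFP(−) cells. STAR, which brings cholesterol into steroidogenic mitochondria, was the 1 matched gene of the 4 symbols of the interrenal list. It had 39.5 in GFP(+) and 116.0 in GFP(−) cells and was at least 2.39-fold lower. CYP2R1 (ENSDARG00000056587), a vitamin D hydroxylase found in mammalian liver, was at least 8.68-fold lower, with 46 against 421.0 normalized reads. CYP27B1 (ENSDARG00000045015), which makes the active hormone, was 1.68-fold lower, with 64 against 107.5. The source of the difference in CYP17A1 was not tested.

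**Figure D3:**
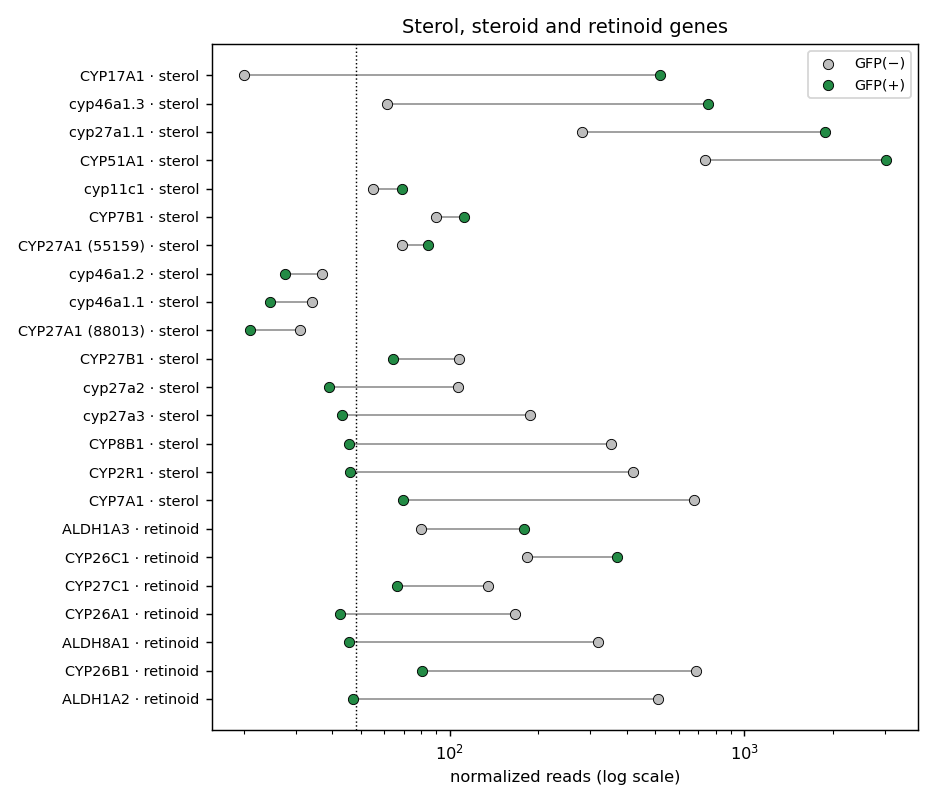
Normalized reads (log scale) of the 16 sterol and steroid P450s and the 7 retinoid enzymes in the GFP(−) library (grey) and the GFP(+) library (green), ordered by ratio within each class. The 5 digits after CYP27A1 are the end of its identifier, and the dotted line marks a value of 48. In CYP17A1, cyp46a1.3, cyp27a1.1 and CYP51A1 the green point lies at least 3-fold to the right of the grey one.

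CYP51A1 was compared with the other genes of cholesterol synthesis in a list of 26 symbols, of which 23 matched, to CYP51A1 and 20 further genes. GFP(+) cells had the higher value in 19 of the 20, in 10 of them at least 3-fold, and in none was it 3-fold lower. Over all genes, 47.5% were higher, with 16.9% at least 3-fold higher and 16.4% at least 3-fold lower. The median log2 ratio of the 20 genes was 1.74, against −0.10 for all genes. All 16 enzymes of the list were higher, by 1.13-fold to 25.6-fold. SQLE (ENSDARG00000079946), the squalene epoxidase, had 1393.0 normalized reads in GFP(+) and 130.5 in GFP(−) cells, a 10.7-fold difference. MVD (ENSDARG00000074035), which makes isopentenyl pyrophosphate, had 869.5 against 34.0. The enzymes next to CYP51A1 in the pathway lay in the same direction.

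LSS, which closes the ring of lanosterol, had 193 in GFP(+) and 35 in GFP(−) cells. TM7SF2, a sterol reductase of the step after CYP51A1, was 2.38-fold higher, with 308.5 against 129.5. MSMO1, the methyl sterol oxidase of a later step, had 2757.5 against 517.0. The other 4 genes of the list were regulators and the LDL receptor. The transcription factor srebf2 was 2.71-fold higher and its retention partner insig1 2.67-fold higher, whereas SCAP, the escort of this factor, was 2.56-fold lower, with 101.0 against 258.5 normalized reads. The HC markers, the superficial epidermis markers and 7 of 11 ionocyte genes were higher in the same library, and their part in the difference was not tested.

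**Figure D4:**
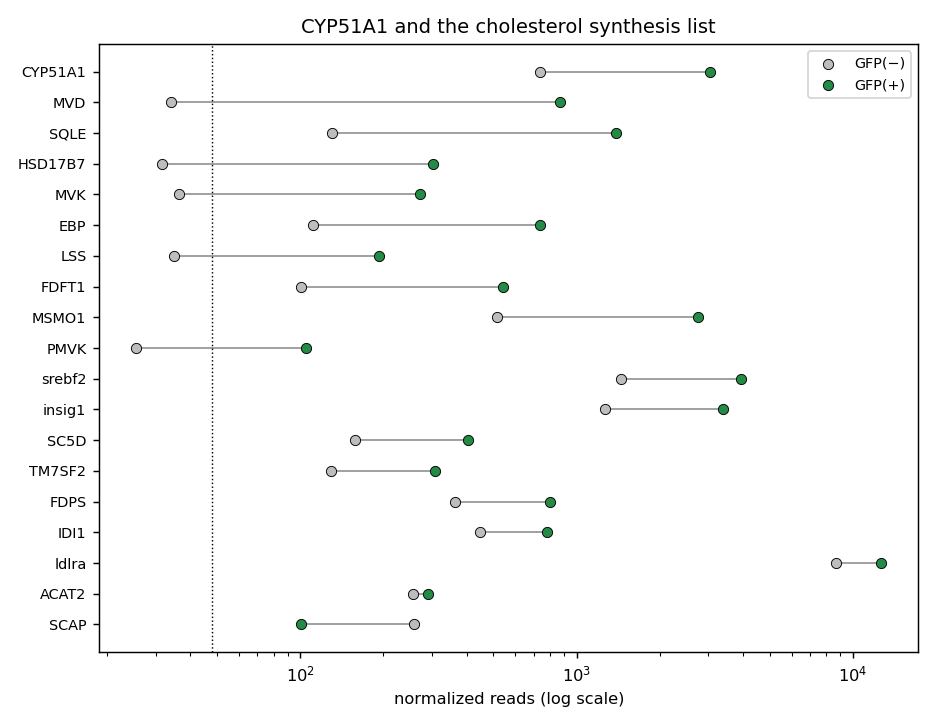
Normalized reads (log scale) of CYP51A1, at the top, and of 18 of the 20 genes of the cholesterol synthesis list, ordered by ratio, in the GFP(−) library (grey) and the GFP(+) library (green). The green point lies to the right in CYP51A1 and in 17 of the 18 genes, and to the left in SCAP.

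In the list of other steroid and bile acid genes, of 25 symbols, 17 matched 18 genes, with 6 higher and 12 lower in GFP(+) cells, 3 at least 3-fold higher and 5 at least 3-fold lower. Over all genes, 47.5% were higher and 52.4% lower, with 16.9% and 16.4% at least 3-fold. The 12 lower genes include NR0B2 and NR1H4, whose values were both under 48 and give no direction. The bile salt exporter ABCB11 (ENSDARG00000070078) had 48 normalized reads in GFP(+) cells against 1219.0 and was at least 25.1-fold lower, whereas its copy abcb11a (ENSDARG00000011573) was 4.14-fold higher, with 87.0 against 21. HSD17B12 (ENSDARG00000015709), a reductase of fatty acid elongation that also acts on steroids, had 28788.0 against 1275.5 and was 22.6-fold higher, whereas its copy hsd17b12b was 1.60-fold lower, with 286.5 against 458.5.

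Retinoic acid, the active form of vitamin A, is made by ALDH1A enzymes and broken down by CYP26 enzymes. Each group had members in both directions, with 1 of 2 ALDH1A genes and 2 of 3 CYP26 genes lower in GFP(+) cells. By the deposited values 52.4% of all genes were lower, and groups this small cannot be told from that share. ALDH1A2 (ENSDARG00000053493) had 47 normalized reads in GFP(+) cells against 512.0 and was at least 10.6-fold lower. ALDH1A3 (ENSDARG00000076933) was 2.23-fold higher, with 178.5 against 80.0. Among the degrading enzymes, CYP26B1 (ENSDARG00000077121) had 80.5 against 687.5 normalized reads, 8.54-fold lower, and CYP26A1 (ENSDARG00000033999), with 42.5 against 166.5, at least 3.43-fold lower. CYP26C1 (ENSDARG00000056029) was 2.03-fold higher, with 371.5 against 183.0. Thus the retinoid genes higher in GFP(+) cells were 1 gene of synthesis and 1 of breakdown, both by less than 3-fold.

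CYP27C1 (ENSDARG00000092660), which converts vitamin A1 to vitamin A2 in fish, was 2.05-fold lower, with 66.0 against 135.0 normalized reads. ALDH8A1 (ENSDARG00000036776), described first as a retinal dehydrogenase and later placed in tryptophan breakdown, had 45.5 against 319.5 and was at least 6.59-fold lower. Other genes of retinoid handling were in a list of 44 symbols, of which 36 matched 37 genes. Of these, 10 were higher in GFP(+) cells, 4 of them at least 3-fold, and 27 were lower, 10 of them at least 3-fold, with a median log2 ratio of −0.77. Over all genes, 47.5% were higher and 52.4% lower, with 16.9% and 16.4% at least 3-fold and a median of −0.10. The lower genes include rlbp1b, RBP7, RARG (ENSDARG00000054003) and RPE65 (ENSDARG00000094752), whose values were both under 48 and give no direction. The retinol-binding protein rbp7a (ENSDARG00000091906) had 335.5 in GFP(+) cells against the floor value and was at least 16.8-fold higher. RBP2 (ENSDARG00000093774), known from the absorptive gut, had 48 in GFP(+) cells against 1536.0 and was at least 31.7-fold lower, and 11 of 12 enterocyte markers were lower in the same library.

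All 4 P450s of the CYP4 family, which hydroxylate the end of fatty acid chains, were lower in GFP(+) cells. By the deposited values 52.4% of all genes were lower. A pair of them share the name CYP4V2, the human gene of a crystalline retinal dystrophy. ENSDARG00000062132 was 28.5-fold lower, with 54 normalized reads in GFP(+) cells against 1538.5, the lowest ratio of all members by the deposited values. Its GFP(+) value lies close above the end of the tied curve at 48.5, so that the size of this fold is uncertain. ENSDARG00000061585 was 3.45-fold lower, with 76.0 against 262.5. cyp4t8 was 3.16-fold lower, with 129.5 against 409.5, and cyp4f3, with 36 against 71, at least 1.46-fold lower.

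The class of xenobiotic P450s had 6 members higher in GFP(+) cells, 14 lower and 2 without a direction. The class was set by symbol, and not all of its members are known to act on foreign compounds. By the deposited values, 2 of the 22 were at least 3-fold higher (9.09%), against 16.9% of all genes. A further 8 were at least 3-fold lower (36.4%), against 16.4% of all genes. With GFP(+) values of up to 48 set to 48, 7 were (31.8%), against 14.6% of all genes. The CYP2 family made up 16 of the 22, and its lower members included genes with high values in GFP(−) cells. cyp2ad2 (ENSDARG00000021172) was 20.7-fold lower, with 191.0 normalized reads in GFP(+) cells against 3955.0. cyp2ad3 (ENSDARG00000022650), with 608.5 against 4845.5, was 7.96-fold lower, and cyp2n13 (ENSDARG00000042953), with 307.5 against 2426.0, was 7.89-fold lower. The fish genes of the CYP2AD, CYP2N and CYP2P subfamilies are related to human CYP2J2, an epoxygenase of arachidonic acid. A member outside the neighbourhood described next, cyp2x7 (ENSDARG00000044002), had 46 against 366.5 and was at least 7.56-fold lower. The highest ratio of all members by the deposited values was that of a gene deposited as CYP2D6 (ENSDARG00000041418), copy 2 of 9 by its symbol, which had 1127.0 against 36. normalized reads, a 31.3-fold higher value in GFP(+) cells

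In the RefSeq annotation of the GRCz12tu assembly, 11 of the CYP2 genes stand close together on 1 chromosome. Of these neighbours, 8 were lower in GFP(+) cells, 6 of them at least 3-fold, and 3 were higher, none of them 3-fold. Over all genes, 52.4% were lower and 47.5% higher, with 16.4% and 16.9% at least 3-fold. The lower genes were cyp2n13, cyp2ad6, cyp2ad2, cyp2ad3, cyp2p6, cyp2p7, cyp2p8 and cyp2p9. The higher genes were cyp2v1, with 1190.0 normalized reads in GFP(+) and 421.5 in GFP(−) cells, cyp2p10, with 111.5 against 61.5, and cyp2j20, with 107.0 against 49.5. cyp2v1 lies between lower genes, and its span in that annotation overlaps those of cyp2ad2, cyp2ad3 and cyp2p6. The split of reads among them may therefore be uncertain. Reads were counted on Ensembl genes of the Zv9 build, and whether these genes shared reads there was not tested. The spans of cyp2p10 and cyp2j20 overlap each other, and the same holds for them. cyp2p7 was nearly equal in the libraries, with 481.0 against 498.0.

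**Figure D5:**
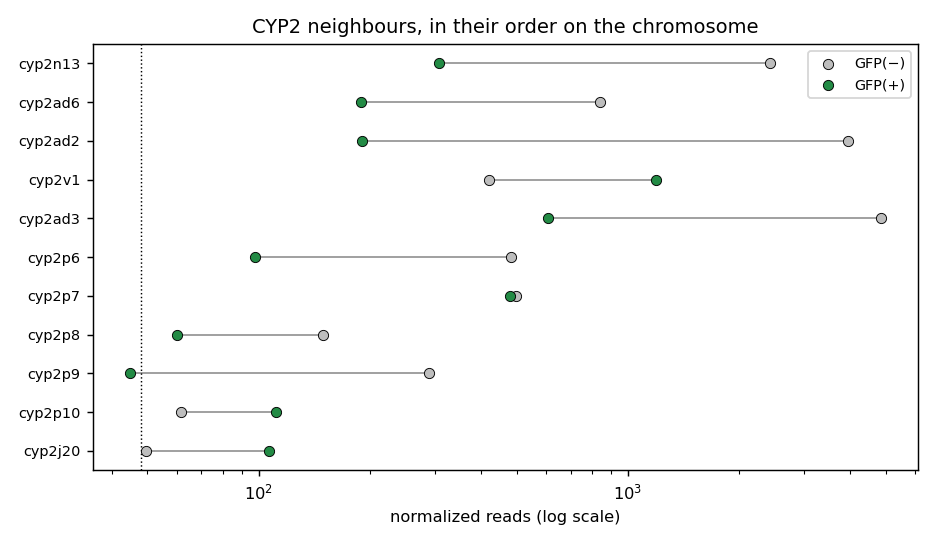
Normalized reads (log scale) of 11 neighbouring CYP2 genes, from top to bottom in their order in the RefSeq annotation, in the GFP(−) library (grey) and the GFP(+) library (green). The dotted line marks a value of 48. The green point lies to the left in 8 genes, and to the right in cyp2v1, cyp2p10 and cyp2j20.

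Among the CYP3 genes, whose human relatives metabolize many drugs, neighbours differed as well. cyp3c1 (ENSDARG00000015575) had 1795.5 normalized reads in GFP(+) and 1908.5 in GFP(−) cells, cyp3c2 (ENSDARG00000037874) had 90.0 in GFP(+) cells against the floor value, at least 4.50-fold higher, and cyp3c3 (ENSDARG00000037873), with 40.5 against 131.5, was at least 2.71-fold lower. The CYP1 enzymes, some of which respond to the aryl hydrocarbon receptor in vertebrates, showed no large difference. cyp1d1 had 127.5 in GFP(+) and 186.0 in GFP(−) cells, and CYP1B1, with 30 against 39, had no direction. CYP20A1, an enzyme without a known substrate, was 1.49-fold higher, with 370.0 against 247.5. CYP2U1, a fatty acid hydroxylase, had 35 against 64.5 and was at least 1.33-fold lower.

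Receptors, electron donors and exporters that work with these enzymes were in a list of 28 symbols, of which 20 matched 21 genes. Of these, 13 were higher in GFP(+) cells, 3 of them at least 3-fold, and 8 were lower, 5 of them at least 3-fold. Over all genes, 47.5% were higher and 52.4% lower, with 16.9% and 16.4% at least 3-fold. The 8 lower genes include NR1H4, whose values were both under 48 and give no direction. P450 reductase had a pair of genes, and POR (ENSDARG00000059035) was 1.80-fold higher while POR (ENSDARG00000055092) was almost equal, with 1351.5 normalized reads in GFP(+) and 1307.5 in GFP(−) cells. NR1I2 (ENSDARG00000029766), the pregnane X receptor that induces CYP3 genes in mammals, was 6.85-fold higher, with 2810.0 against 410.0. The aryl hydrocarbon receptor ahr2 (ENSDARG00000021833) had 1947.5 against 2246.0. HNF4A, a hepatic and intestinal factor, had 43.5 against 211.5 and was at least 4.36-fold lower.

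The conjugation enzymes were evenly split, with 18 of 40 higher and 18 lower in GFP(+) cells and 4 without a direction. By the deposited values, 22 of the 40 were lower (55.0%), against 52.4% of all genes, and 47.5% of all genes were higher. Of 14 sulfotransferases, 8 were higher, against 47.5% of all genes, and by the deposited values 6 were lower (42.9%), against 52.4% of all genes, 1 of them without a direction. Sulfotransferases of the SULT1 family act on phenols, thyroid hormones and catechols. sult1st5 (ENSDARG00000003475) had 620.0 against 38.5 normalized reads, 16.1-fold higher in GFP(+) cells, and sult1st4 (ENSDARG00000003181) was 5.54-fold higher, with 133.0 against 24. sult1st9 (ENSDARG00000094996) had 142.5 in GFP(+) cells against the floor value, at least 7.13-fold higher. sult1st3 (ENSDARG00000018361), its near neighbour in the RefSeq annotation, lay the other way, with 46 against 362.0, at least 7.46-fold lower.

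sult1st1, which stands between sult1st9 and sult1st3, was 1.92-fold higher, with 1150.0 in GFP(+) and 600.5 in GFP(−) cells, and sult1st6 was 2.22-fold lower, with 180.0 against 399.5. The SULT2 enzymes, which sulfate steroids, were both higher, against 47.5% of all genes. sult2st3 (ENSDARG00000028367) was 3.33-fold higher, with 291.0 against 87.5, and sult2st1 (ENSDARG00000033170) 1.80-fold, with 619.0 against 343.5. sult6b1 had 1558.0 against 1059.5. Of the 4 SULT3 genes, 3 had GFP(+) values of 48 or less, and sult3st1, with 151.5 against 123.0, was 1.23-fold higher. sult5a1 was 3.73-fold lower, with 69.5 against 259.0.

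Among 14 UGT genes, 5 were higher in GFP(+) cells, 7 lower and 2 without a direction. By the deposited values, 9 of the 14 were lower (64.3%), against 52.4% of all genes, and 47.5% of all genes were higher. At least 3-fold higher were 3 UGT genes (21.4%), near the 16.9% of all genes. These 3 belong to the UGT5 family, which is known from fish. ugt5f1 (ENSDARG00000054835) had 509.5 against 40.5 normalized reads, 12.6-fold higher in GFP(+) cells. ugt5a1 (ENSDARG00000016479), with 217.5 against 23, and ugt5a2 (ENSDARG00000093640), with 335.5 against 34.5, were 9.46-fold and 9.72-fold higher. The last pair overlap in the RefSeq annotation, and the split of reads between them may be uncertain. Whether they shared reads in the counts on the Zv9 build was not tested. The other UGT5 genes did not follow, with ugt5b4 at 309.5 against 396.5, ugt5g1 at 58.5 against 72.5 and ugt5c3 at 60.0 against 144.0.

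UGT1 and UGT2 are the families of hepatic glucuronidation in mammals. By the deposited values, 2 of 2 UGT1 genes and 3 of 4 UGT2 genes were lower, against 52.4% of all genes. The lower UGT2 genes include ugt2b1, which gives no direction. UGT1A1 (ENSDARG00000006220), the bilirubin enzyme in humans, was 2.21-fold lower, with 458.0 against 1013.5. ugt1b5 (ENSDARG00000089507), with 102.5 against 473.0, was 4.61-fold lower, and ugt2a4 (ENSDARG00000051940), with 205.5 against 751.0, was 3.65-fold lower. UGT8, which makes the galactolipids of myelin and takes no part in detoxification, was 1.81-fold higher, with 977.0 against 539.0, while the 4 glial markers were all lower. Supply of the sugar donor lay in the direction of the UGT1 genes for UGDH, which makes UDP-glucuronic acid and was 5.72-fold lower, with 77.5 normalized reads in GFP(+) and 443.0 in GFP(−) cells. Other genes of this supply were split. UGP2 was 1.77-fold higher (ENSDARG00000008200) and 20.4-fold lower (ENSDARG00000005578). SLC35D1 was 1.80-fold higher (ENSDARG00000027986) and 2.61-fold lower (ENSDARG00000011973).

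Of 12 GST genes, 5 were higher, 6 lower and 1 without a direction, and the classes of this family differed. By the deposited values, 7 of the 12 were lower (58.3%), against 52.4% of all genes, and 47.5% of all genes were higher. gsto2 (ENSDARG00000033285), an omega-class enzyme that reduces dehydroascorbate in mammals, had 1862.0 against 286.5 normalized reads, 6.50-fold higher in GFP(+) cells. All 3 theta-class genes were lower, with gstt1a (ENSDARG00000042428) at 136.5 against 1431.5, a 10.5-fold difference, and with gstt1b and gstt2 lower by less than 3-fold. GSTZ1 (ENSDARG00000027984), the maleylacetoacetate isomerase of tyrosine breakdown, was 4.66-fold lower, with 152.5 against 711.0. gstr (ENSDARG00000042620), of the rho class found in fish, was 3.02-fold lower, with 949.5 against 2867.0.

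A set of 3 mu-class genes share the name GSTM3 and had different directions. ENSDARG00000029473 had 420.5 against 105.5 normalized reads, 3.99-fold higher in GFP(+) cells, ENSDARG00000088116 had 136.0 against 120.5, and ENSDARG00000042533 was 4.59-fold lower, with 203.0 against 932.0. Such closely related copies can share reads, and the split among them is uncertain. gsta.1, of the alpha class, was 1.45-fold higher, with 1460.5 against 1004.5, and gstk1, of the kappa class, 1.69-fold, with 613.5 against 362.0.

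Of the 18 aldehyde and alcohol dehydrogenases outside the retinoid class, 15 were lower in GFP(+) cells, 7 of them at least 3-fold, and 3 were higher. The lower genes were 83.3% of this class, against 52.4% of all genes. Those at least 3-fold lower were 38.9%, against 16.4% of all genes. The exception in size was aldh3b1 (ENSDARG00000013839), which oxidizes aldehydes from lipid peroxidation in mammals and had 1899.0 against 99.5 normalized reads, 19.1-fold higher in GFP(+) cells. aldh3a2a, a fatty aldehyde dehydrogenase, had 312.0 against 257.5. ALDH1L1 (ENSDARG00000077004), the folate enzyme that marks liver and astrocytes in mammals, was 13.5-fold lower, with 213.0 against 2885.5, and hepatocyte and glial markers were lower in the same library.

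Other aldehyde dehydrogenases were lower by different amounts. ALDH4A1, of proline breakdown, was 3.36-fold lower, with 562.0 normalized reads in GFP(+) and 1890.5 in GFP(−) cells. ALDH6A1, of valine breakdown, was 3.24-fold lower, with 3408.0 against 11042.0, and ALDH7A1, of lysine breakdown, 3.05-fold, with 1092.5 against 3331.5. ALDH5A1, which clears the product of GABA, was 2.89-fold lower, with 109.0 against 315.5. ALDH9A1, of carnitine synthesis, was 1.90-fold lower, with 5239.0 against 9930.0, and its relative aldh9a1b 5.34-fold, with 85.0 against 454.0.

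ALDH1L2, the mitochondrial relative of ALDH1L1, was 1.41-fold lower, with 178.0 against 251.5. Both genes of the ALDH2 type, which clear acetaldehyde, were lower by less than 3-fold, with 181.5 against 454.0 for ALDH2 and 443.5 against 614.5 for aldh2.2. aldh16a1 was 3.43-fold lower, with 316.0 against 1083.5. Of the alcohol dehydrogenases, adh5, the formaldehyde enzyme of all cells, was 2.34-fold lower, with 1535.0 against 3585.0. The neighbours adh8a and adh8b were opposite. adh8a had 113.0 in GFP(+) and 38 in GFP(−) cells, and adh8b had 194.5 against 620.0.

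Across all families, 92 members could be placed in the RefSeq annotation by a unique symbol or synonym, and 37 of them stood within 10 genes of another member, in 12 groups. In 4 of the 12 groups, those of CYP2, CYP3C, SULT1 and ADH8, members of the same group lay in different directions.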

How the data were processed

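RNA from GFP(+) and GFP(−) cells of 5 dpf larvae was made into TruSeq libraries, 1 per population. Alignment by the authors used TopHat and the Zv9 build, and HTSeq counted reads per Ensembl gene. Versions and the use of strand in counting are not given in the sources used here. The deposited values are a normalized signal per gene, namely read counts after quantile normalization and a floor of 20, with a minimum of 40 reads named in the title of the table, so that depth and precision are unknown.

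Ratios of GFP(+) to GFP(−) values were computed without a pseudocount, and 3-fold was used as the criterion, which the study applied to elevated genes of its mouse RNA-seq data. With 1 library per group no test was made. The tied curve of GFP(+) values was followed to its end, the last value before the GFP(−) value dropped back, which was 48.5. No member had 48.5.

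Members, classes, the 5 pathway lists and the 12 marker lists were chosen with earlier results of these data known. List symbols were matched without regard to case, and without the zebrafish suffix where no equal symbol was found. By the rule for naming genes, all sterol, steroid and retinoid members, the highest and lowest ratio of each other family among members reaching 100, and members with 1000 normalized reads in either library are named. Further members are named to complete their families, and genes of the pathway lists were named after their values were seen. Names were taken from a table that covers 14593 of the 17668 identifiers and from deposited symbols. RefSeq of GRCz12tu was used for the order of genes and for overlaps between their spans. The alternatives were a pseudocount, a minimum mean, exclusion of the floor, tied values set to 48, centring and other sources of names. Results of 2 genes of the cholesterol synthesis list are not reported here by name, and counts of the list include them. Counting functions were tested on simulated data. Python 3.11.15 with numpy 2.4.6, pandas 2.3.3 and matplotlib 3.10.9 was used.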

Additional observations from a re-analysis of the deposited data

How the results depend on the processing

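With a pseudocount of 20, the median log2 ratio was −0.46 for all members, −0.27 for the sterol and steroid class, −1.58 for the retinoid class, −0.50 for the xenobiotic P450s, −0.26 for the conjugation class and 1.44 for the cholesterol synthesis list, and all alternatives of this list were chosen after seeing the data. With a pseudocount of 100, these medians were −0.29, −0.10, −0.90, −0.26, −0.11 and 1.23, and 10 members were at least 3-fold higher and 18 at least 3-fold lower. Among genes with a mean of at least 100, they were −1.15 for all 77 members left, 0.32 for the sterol and steroid class, −1.74 for the xenobiotic P450s, 0.17 for the conjugation class and 1.44 for the cholesterol synthesis list. The median of all 12586 genes left was 0.05. Above the floor in both libraries, they were −0.75 for all members, −0.47 for the sterol and steroid class, −0.82 for the xenobiotic P450s and −0.36 for the conjugation class. With GFP(+) values of up to 48 set to 48, they were −0.45 for all members, 0.32 for the sterol and steroid class, −1.79 for the retinoid class, −0.36 for the xenobiotic P450s and 0.35 for the conjugation class. This setting also moved the median of all genes from −0.10 to 0.12, and by its construction it makes genes with both values under 48 higher. The signs of the sterol and steroid median and of the conjugation median, −0.45 and −0.33 by the deposited values, thus depended on tied and low values. Centred on the median of all genes, −0.10, the medians were −0.51 for all members, −0.35, −1.87, −0.58 and −0.23 for the same classes, and 1.84 for the cholesterol synthesis list. The 7 members with a deposited symbol had a median of 0.76, with 2 at least 3-fold higher and 1 at least 3-fold lower, and none was a retinoid gene. Their medians were 1.43 for the sterol and steroid class, 4.97 for the xenobiotic P450s, which is the CYP2D6 gene alone, and 0.76 for the conjugation class. None of the 7 was tied, whereas 27 of the 107 members were, and the cause of the difference was not tested. Names by identifier only gave −0.64 for all members and −0.76 for the xenobiotic P450s. Members with GFP(+) values above 48, an alternative chosen after seeing the data that leaves out genes low in GFP(+) cells, had medians of −0.33 for all 80 members, 0.33 for the sterol and steroid class, −0.0055 for the retinoid class, −0.0881 for the xenobiotic P450s and 0.30 for the conjugation class. The median of all 14339 genes with such values was 0.30, so that the sterol and steroid class and the conjugation class lay near it and the others below it. Of the 66 values recomputed in this way, 10 changed sign. The cholesterol synthesis median did so in none of its 4 alternatives. The number of members at least 3-fold lower stayed above that of members at least 3-fold higher in every alternative but that of deposited symbols only. No paired analysis was possible because each population has 1 library.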

Other observations

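Genes of glutathione use and of the NRF2 response, which supply and protect the conjugation enzymes, were described by a list of 38 symbols, of which 36 matched 38 genes. Of these, 18 were higher in GFP(+) cells and 20 lower, with 8 at least 3-fold higher and 8 at least 3-fold lower by the deposited values. Over all genes, 47.5% were higher and 52.4% lower, with 16.9% and 16.4% at least 3-fold. With GFP(+) values of up to 48 set to 48, 6 genes of the list were at least 3-fold lower, against 14.6% of all genes. Glutathione peroxidases, which remove peroxides, lay in different directions. gpx1b (ENSDARG00000006207) had 1431.5 normalized reads in GFP(+) and 74.5 in GFP(−) cells and was 19.2-fold higher, and gpx2 (ENSDARG00000089149) was 21.1-fold higher, with 729.0 against 34.5. Its relatives gpx1a and gpx4a were 5.62-fold and 18.4-fold lower, with 353.5 against 1987.5 and 212.0 against 3907.5. Both genes named MGST1, the microsomal glutathione transferase, were higher, ENSDARG00000022165 by 7.15-fold and ENSDARG00000032618 by 10.4-fold. NFE2L2 (ENSDARG00000042824), the gene of NRF2, was 2.43-fold higher, with 9814.5 against 4039.5. GCLC, the rate-limiting enzyme of glutathione synthesis, was almost equal, with 1164.5 against 1186.0.

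From the list of receptors and partners, the exporter abcb5 (ENSDARG00000021787) had 14816.0 normalized reads in GFP(+) and 310.5 in GFP(−) cells and was 47.7-fold higher. Other exporters of this list differed in direction. ABCC1 was 2.19-fold higher, whereas ABCB4 was 10.5-fold lower, with 95.5 against 998.0, and abcc2 at least 43.8-fold lower, with 48.5 against 2123.5. Of all 21 genes of the list, 13 were higher and 8 lower, against 47.5% and 52.4% of all genes. NQO1 (ENSDARG00000010250), a quinone reductase, was 14.0-fold higher, with 6452.0 against 462.5. All 8 markers of the superficial epidermis and 7 of 11 ionocyte genes were higher in the same library, and their part in these values was not tested.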
